A study of Mus musculus with 8 samples.

Results

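Cardiolipin synthesis and remodelling was followed here through 10 genes of the 49315 listed for each library: Crls1, Taz, Ptpmt1, Pgs1, Tamm41, Prelid1, Triap1, Lclat1, Pnpla8 and Pisd. The members were taken by gene name, with no threshold on measured values. RNA was sequenced from immortalized mouse embryonic fibroblasts in 2 groups of 4 libraries. The first group is labelled Opa1-/-, and the second is labelled Opa1-/- + OPA1, the same knockout cells in which OPA1 was put back, here called reconstituted libraries. Both groups therefore carry the Opa1 knockout, no wild-type cells were among the libraries used here, and no treatment was recorded. The labels do not say how the gene was disrupted, how or from which species OPA1 was put back, or whether either group is 1 clone. They also do not say that the 4 libraries of a group came from separate cultures, so each p-value reflects library-to-library spread that may be technical. The study set out to see how the loss of OPA1, the GTPase that fuses mitochondrial inner membranes and holds cristae in shape, alters the transcriptome.

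Cardiolipin is a phospholipid with a pair of phosphatidyl head groups and 4 acyl chains, found almost entirely in the mitochondrial inner membrane. Phosphatidic acid is carried across the intermembrane space, activated to CDP-diacylglycerol, turned into phosphatidylglycerol and joined with another CDP-diacylglycerol to give new cardiolipin, whose acyl chains are then exchanged by phospholipases and acyltransferases. OPA1 acts on the same membrane, and its binding to cardiolipin is part of how it fuses inner membranes. Of the genes listed, Pisd stands beside this route and not in it, since its product makes phosphatidylethanolamine, the other cone-shaped phospholipid of the inner membrane.

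Promoter sequences are shown for 4 members: Triap1 and Pisd, which passed the test between the groups, Prelid1, which was by far the most abundant, and Lclat1, which had the largest difference in the opposite direction. Each window is RefSeq sequence on GRCm38.p6, from 250 bases before to 50 bases after the annotated transcription start, printed 5′ to 3′ on the gene's strand. Capitals mark matches, on either strand, to 8 short motifs, which are spelled out after the sequences.
Triap1 (chr5:115340981-115341280, plus strand): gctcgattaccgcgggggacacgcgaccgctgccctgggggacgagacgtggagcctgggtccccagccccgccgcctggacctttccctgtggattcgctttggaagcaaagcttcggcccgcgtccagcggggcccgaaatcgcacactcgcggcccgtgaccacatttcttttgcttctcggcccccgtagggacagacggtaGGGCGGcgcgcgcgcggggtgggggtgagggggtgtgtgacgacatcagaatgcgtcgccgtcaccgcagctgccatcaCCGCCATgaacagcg
Pisd (chr5:32785577-32785876, minus strand): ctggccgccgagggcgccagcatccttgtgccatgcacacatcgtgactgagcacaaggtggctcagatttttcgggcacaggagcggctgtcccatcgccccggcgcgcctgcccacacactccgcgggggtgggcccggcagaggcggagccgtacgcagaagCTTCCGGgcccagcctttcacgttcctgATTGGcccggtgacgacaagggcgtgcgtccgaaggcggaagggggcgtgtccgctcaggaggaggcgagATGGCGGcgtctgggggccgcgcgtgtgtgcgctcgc
Prelid1 (chr13:55321805-55322104, plus strand): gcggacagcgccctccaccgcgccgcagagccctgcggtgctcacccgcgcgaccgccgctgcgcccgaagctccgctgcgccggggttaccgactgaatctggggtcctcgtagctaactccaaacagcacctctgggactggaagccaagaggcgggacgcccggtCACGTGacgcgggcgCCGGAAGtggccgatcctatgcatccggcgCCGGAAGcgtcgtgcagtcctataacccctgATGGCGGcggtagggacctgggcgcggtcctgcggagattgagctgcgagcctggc
Lclat1 (chr17:73107735-73108034, plus strand): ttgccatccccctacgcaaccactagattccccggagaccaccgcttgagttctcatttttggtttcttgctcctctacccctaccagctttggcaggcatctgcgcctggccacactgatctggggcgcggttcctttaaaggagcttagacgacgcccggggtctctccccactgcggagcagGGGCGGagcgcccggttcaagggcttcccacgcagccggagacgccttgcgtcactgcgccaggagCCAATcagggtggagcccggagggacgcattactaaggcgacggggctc

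Windows were found for 9 of the 10 members, 11 windows in all, and they were read against 32851 windows of all genes. The YY1 motif, searched as ATGGCGG, was in a window of Pgs1, Pisd, Prelid1 and Triap1, and in 4.05% of all windows. In the Triap1 window above it lies at position 36 after the start, and in the Prelid1 window at position -6. The ETS motif, searched as CCGGAAG, was in a window of Pgs1, Pisd and Prelid1, with 2 matches in Prelid1, and in 8.86% of all windows. The E-box, CACGTG, was in those of Crls1 and Prelid1 and in 7.15% of all windows. The NRF1 motif, GCGCANGCG with N for any base, was in that of Pgs1 and in 6.25% of all windows. The CCAAT box, searched by those 5 letters, was in windows of Lclat1 and Pisd and in 37.4% of all windows. The GC box, GGGCGG, was in windows of Lclat1, Pgs1, Pisd, Pnpla8, Taz and Triap1 and in 35.7% of all windows. Its Pisd match lies in another Pisd window, which is not shown above. No member window held the ATF4 motif, TGATGNAA, found in 3.97% of all windows. The CRE, TGACGTCA, was likewise in none of them and in 1.79% of all windows. Marked matches did not overlap each other. These are letter matches only.

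Levels are given as scaled TPM, the deposited TPM (the share of transcripts a gene takes) after scaling between libraries. TPM is per length, here that of all annotated exons of a gene, from 1088 bases for Triap1 to 14174 for Pnpla8. Which of these exons the cells used was not tested, so levels of different genes compare only roughly. For Prelid1 and Ptpmt1, the largest overlap with a single gene on the opposite strand also covers 46.1% and 45% of the exon bases (Rab24 and Kbtbd4). For Pisd, a gene model on the same strand, Gm20671, covers 20.1%. Averaged over all 8 libraries, Prelid1 stood at 715 scaled TPM, ahead of Crls1 at 64.1, Triap1 at 38.1, Pgs1 at 37.1, Lclat1 at 31.4, Ptpmt1 at 26.0, Tamm41 at 25.7, Pnpla8 at 23.2, Taz at 13.5 and Pisd at 11.3. Only 1.14% of the genes tested were at or above the level of Prelid1, while Taz and Pisd lay near the middle of the genes tested, with 52.9% and 56.8% at or above them. Prelid1 exceeded Crls1 by 11.15-fold, Crls1 exceeded Triap1 by 1.69-fold and Pnpla8 exceeded Taz by 1.71-fold, each with no overlap over the 8 libraries. The other neighbours in this order overlapped. The fewest recovered reads per library were those of Triap1 (698 to 883), whose exons are short, followed by Pisd (1018 to 1314) and Taz (1208 to 1718). Prelid1 had 35047 to 38845.

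**Figure D1:**
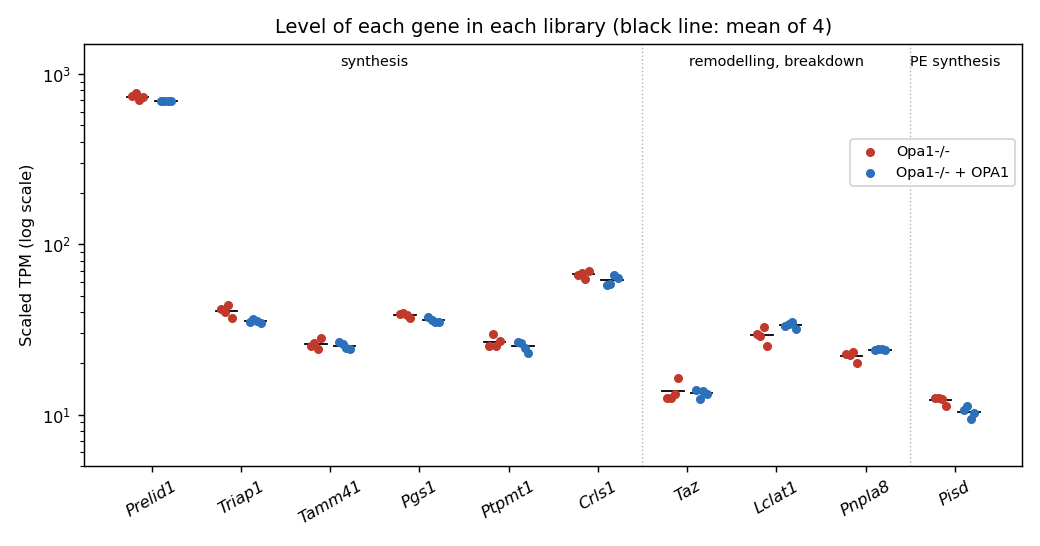
Scaled TPM (log axis) of the 10 genes in each of 8 libraries, ordered by role, with Opa1-/- in red on the left of each pair, Opa1-/- + OPA1 in blue on the right, and a black line at each mean of 4 (PE, phosphatidylethanolamine). Prelid1 stands at 691 to 772 in all libraries, and no other member exceeds 70.1.

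Between the groups these genes differed little. Of the 10 members, all of which passed the filter on low values, Triap1 and Pisd rose in the libraries labelled Opa1-/-, 0 fell, and 8 did not pass the test (limma-trend over 14272 genes, Benjamini-Hochberg adjusted, called at adjusted p below 0.05). Over all genes tested 33% were called, 16.3% as higher and 16.8% as lower in the libraries labelled Opa1-/-, so 2 called members of 10 is not above the background. Log2 differences, always Opa1-/- minus Opa1-/- + OPA1 on log2(scaled TPM + 1), ran from -0.20 to 0.22 with a median of 0.09, beside a median of -0.00 over all genes tested, and 8 of them were positive. The widest 95% intervals reached -0.36 and 0.36, which correspond to folds of 0.78 and 1.28 of scaled TPM + 1. Small differences were not particular to the members, since 63.8% of all genes tested had an absolute difference no larger than the members' largest. In 3 members, Prelid1, Triap1 and Pnpla8, the libraries of the 2 groups did not overlap, and this was so for 36.3% of all genes tested. In bulk RNA, fewer cells of a type and less RNA per cell cannot be told apart.

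**Figure D2:**
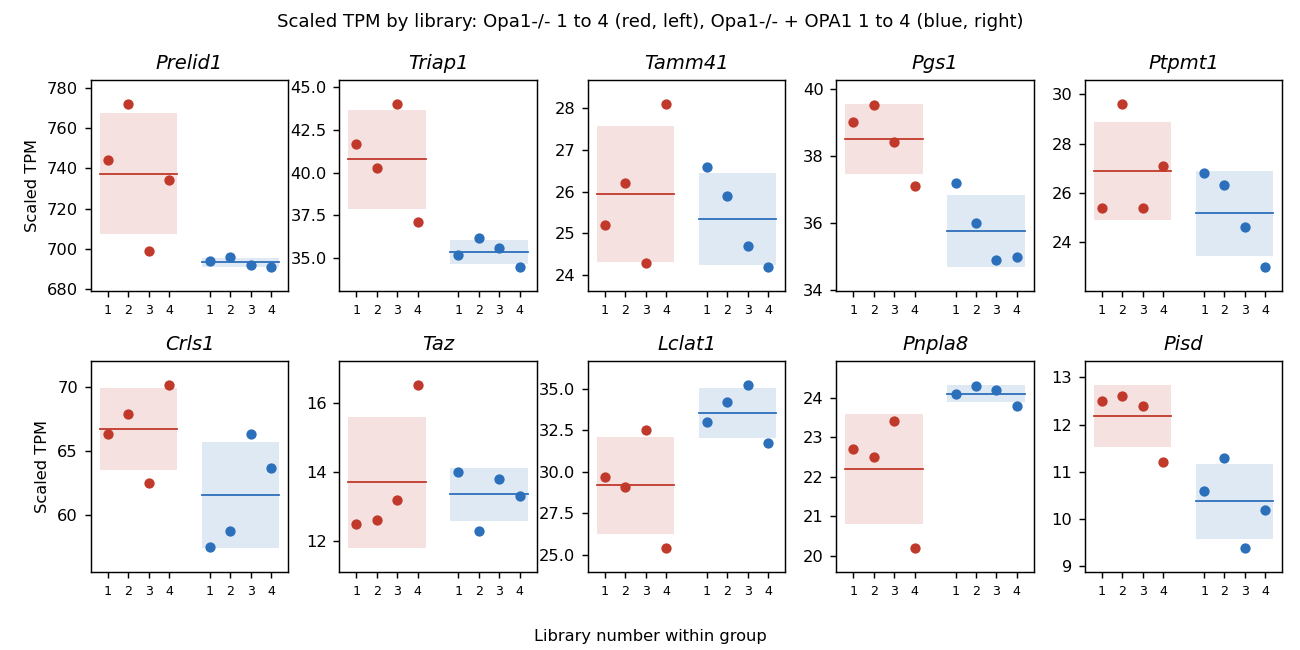
Scaled TPM of each gene by library, Opa1-/- 1 to 4 in red on the left and Opa1-/- + OPA1 1 to 4 in blue on the right, with the mean (line) and 1 SD (band) of each group and axes that do not start at 0. Triap1 and Prelid1 lie wholly above and Pnpla8 wholly below the reconstituted libraries. Opa1-/- library 4 lies apart from the other 3 for Taz (16.5), Pnpla8 (20.2) and Pisd (11.2), and is the lowest of its group for Lclat1 (25.4).

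Opa1 itself did not separate the groups, at 14.8, 14.7, 13.7 and 12.5 scaled TPM in libraries labelled Opa1-/-, against 15.6, 14.6, 14.5 and 14.5 in the reconstituted ones (-0.09, SE 0.06, adjusted p = 0.306), so gene-level RNA does not check the labels, and a total over the gene does not tell intact from disrupted transcripts. Recovered depth was 52.9 M to 57.8 M reads per library (M, 1000000 reads). Of 12 fibroblast markers 10 were tested, with 1 higher and 6 lower in the libraries labelled Opa1-/-. Over all genes tested 16.3% were called higher and 16.8% lower. The 6 lower were S100a4 (-0.84), Col1a2 (-0.56), Dcn (-0.55), Col1a1 (-0.52), Pdgfrb (-0.45) and Col5a1 (-0.29). Col3a1 was higher (0.42), and Fn1, Vim and Thy1 did not pass. The 12 markers summed to 2756 to 3052 scaled TPM in the libraries labelled Opa1-/-, against 3217 to 3282 in the reconstituted ones. Vim, which marks mesenchymal cells, was at 1412 ± 108 against 1368 ± 12 (SD, n = 4 each). Pdgfra and Lum stayed under 1 TPM in every library. The 8 epithelial markers summed to 14.4 to 17.1, against 8.07 to 10.3, most of it Cdh1. Cdh1 rose by 0.61 (12.9 ± 1.76 against 8.10 ± 0.907 scaled TPM, SD, n = 4 each, adjusted p = 0.00206). The other 7 stayed under 1 TPM in every library and were not tested. The 8 macrophage and blood markers summed to 3.39 to 7.72, against 4.64 to 6.55, with Ptprc near 0. Most of it was Cd68, which did not pass (4.25 ± 2.24 against 4.46 ± 1.04 scaled TPM, SD, n = 4 each), and the other 7 stayed under 1 TPM. The 8 endothelial markers summed to 0.313 to 0.566, against 0.258 to 0.36. The part of these shifts in the results was not tested. Library 4 labelled Opa1-/- differed most from its own group, with recovered reads that gave a chi-square per degree of freedom of 33.42 to 47.52 against libraries 1 to 3, while the other pairs within either group gave 4.72 to 25.97. Deviations from the group mean were related to exon length in several libraries (Spearman's rho across 9401 genes, a description), most in Opa1-/- libraries 1 (0.35), 3 (0.47) and 4 (-0.46), and between -0.27 and 0.24 in the reconstituted libraries.

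Prelid1 and Triap1 act first. The PRELID1 protein, paired with TRIAP1, shuttles phosphatidic acid through the intermembrane space to the inner membrane. Triap1 (ENSMUSG00000029535, GRCm38 chr5:115341225-115343569, plus strand) was at 41.7, 40.3, 44.0 and 37.1 scaled TPM in libraries 1 to 4 labelled Opa1-/-, against 35.2, 36.2, 35.6 and 34.5 in the reconstituted libraries. Every library of the first group was above every library of the second, with the reconstituted libraries close together. The means were 40.8 ± 2.87 and 35.4 ± 0.711 (SD, n = 4 each), and Triap1 rose by 0.20 on the log2 scale (SE 0.05, 95% interval 0.08 to 0.32, adjusted p = 0.0192). Without library 4 labelled Opa1-/- the difference was 0.24 (adjusted p = 0.00171). The call was lost on TPM as deposited (0.19, adjusted p = 0.129), with chromosome medians removed (0.14, adjusted p = 0.0894), with each library's trends with exon length and GC content removed (0.14, adjusted p = 0.229), without both libraries numbered 3 (0.16, adjusted p = 0.0823), and without Opa1-/- library 1 (adjusted p = 0.0515) or reconstituted library 3 (0.0563) or 4 (0.0577). Triap1 is short, with 1088 bases of exon.

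Prelid1 (ENSMUSG00000021486, GRCm38 chr13:55320500-55325272, plus strand) was at 744, 772, 699 and 734 scaled TPM in the libraries labelled Opa1-/-, against 694, 696, 692 and 691 in the reconstituted ones. The groups did not overlap, although Opa1-/- library 3 came within a few TPM of the reconstituted libraries. The difference was 0.09 (SE 0.04, adjusted p = 0.115) and did not pass. It passed without that library (0.11, adjusted p = 0.0342) and under upper-quartile scaling (0.12, adjusted p = 0.0419), and stood at 0.02 (adjusted p = 0.672) with length and GC trends removed. Rab24, a small GTPase gene on the opposite strand, overlaps 1258 bases or 46.1% of the Prelid1 exons, and the sources used here do not state whether strand was used in counting, so reads in the overlap have no certain owner. Rab24 was at 77.1 ± 7.06 scaled TPM, against 67.1 ± 2.45 (SD, n = 4 each), and rose (0.19, adjusted p = 0.0407). Mxd3, also on the opposite strand, overlaps 105 bases of Prelid1 exon and rose as well (17 ± 0.802 against 14 ± 0.574 scaled TPM, SD, n = 4 each; 0.26, adjusted p = 0.00427). The processed pseudogene Gm11605 on chromosome 1, which holds 7.5% of the 50-base words of Prelid1, was at 1.40 ± 0.353 against 1.38 ± 0.347 (SD, n = 4 each; 0.01, adjusted p = 0.957). Prelid1 exceeded its partner Triap1 by 18.2 ± 1.73-fold in libraries labelled Opa1-/- and by 19.6 ± 0.350-fold in the reconstituted ones (SD, n = 4 each), with overlap.

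The 4 enzymes that build cardiolipin on the inner membrane are Tamm41, which makes CDP-diacylglycerol from phosphatidic acid, Pgs1, which makes phosphatidylglycerophosphate, Ptpmt1, the phosphatase that turns it into phosphatidylglycerol, and Crls1, the cardiolipin synthase. None of the 4 passed the test, and all 4 differences were positive. Their intervals together reached from -0.09 to 0.24 on the log2 scale.

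Tamm41 (ENSMUSG00000030316, GRCm38 chr6:115004381-115037876, minus strand) was at 25.2, 26.2, 24.3 and 28.1 scaled TPM in the libraries labelled Opa1-/-, against 26.6, 25.9, 24.7 and 24.2 in the reconstituted ones. The groups overlapped widely, and the highest value was that of Opa1-/- library 4. The difference was 0.03 (SE 0.05, adjusted p = 0.688), and without that library it was -0.003.

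Pgs1 (ENSMUSG00000017715, GRCm38 chr11:117986292-118024011, plus strand) was at 39.0, 39.5, 38.4 and 37.1 scaled TPM in the libraries labelled Opa1-/-, against 37.2, 36.0, 34.9 and 35.0 in the reconstituted ones. Relative to its mean it had the smallest spread within the libraries labelled Opa1-/- of all 10 members (coefficient of variation 2.62%), and 3 of the reconstituted libraries were below all of them. The difference was 0.10 (SE 0.04, 95% interval 0.02 to 0.19, adjusted p = 0.0709). It passed without Opa1-/- library 4 (0.12, adjusted p = 0.0222) and under upper-quartile scaling (0.14, adjusted p = 0.0216), and was 0.06 (adjusted p = 0.311) with chromosome medians removed.

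Ptpmt1 (ENSMUSG00000063235, GRCm38 chr2:90908716-90918258, minus strand) was at 25.4, 29.6, 25.4 and 27.1 scaled TPM in the libraries labelled Opa1-/-, against 26.8, 26.3, 24.6 and 23.0 in the reconstituted ones. The groups overlapped, and the difference was 0.09 (SE 0.07, adjusted p = 0.336). Kbtbd4, on the opposite strand, overlaps 1657 bases or 45% of the Ptpmt1 exons, so these values are uncertain in the same way as those of Prelid1. Kbtbd4 was at 13.3 ± 0.848 scaled TPM, against 12 ± 0.391 (SD, n = 4 each; 0.13, adjusted p = 0.108).

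Crls1 (ENSMUSG00000027357, GRCm38 chr2:132846666-132866785, plus strand) was at 66.3, 67.9, 62.5 and 70.1 scaled TPM in the libraries labelled Opa1-/-, against 57.5, 58.8, 66.3 and 63.7 in the reconstituted ones. Reconstituted libraries 1 and 2 were the lowest, and libraries numbered 3 ran against the difference. It was 0.11 (SE 0.06, adjusted p = 0.153), and 0.18 (adjusted p = 0.0527) without both libraries numbered 3. Pgs1 exceeded Ptpmt1 by 1.44 ± 0.102-fold in the libraries labelled Opa1-/- and by 1.42 ± 0.0666-fold in the reconstituted ones (SD, n = 4 each), with overlap. The ratio of Tamm41 to Pgs1 overlapped as well, and that of Ptpmt1 to Crls1 was not computed.

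**Figure D3:**
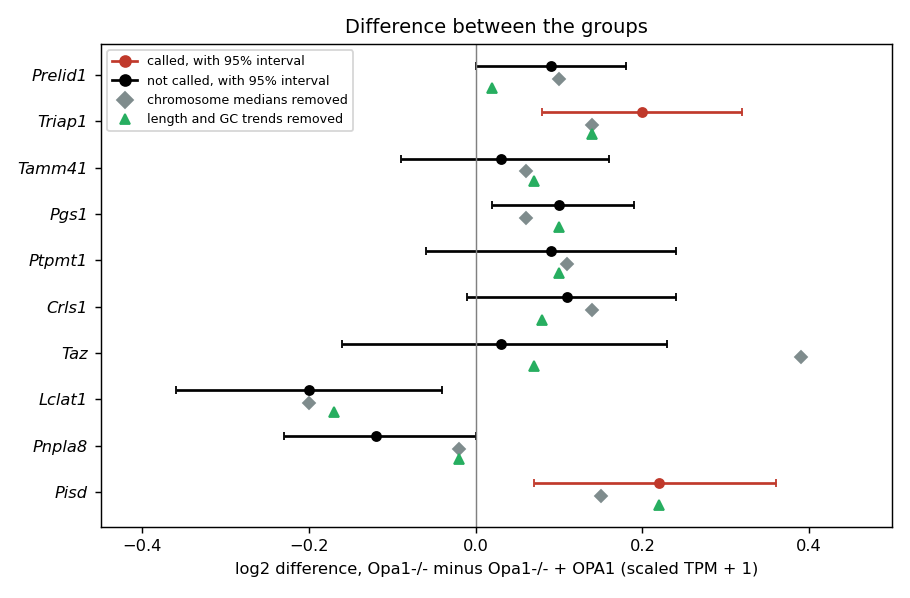
Log2 difference, Opa1-/- minus Opa1-/- + OPA1, for each member with its 95% interval (red where called, black where not), and the same difference with chromosome medians removed (grey diamonds) or length and GC trends removed (green triangles). Triap1 (0.20) and Pisd (0.22) are the called members, and Taz stands at 0.03 with its chromosome median left in and at 0.39 with it removed.

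Once made, cardiolipin is remodelled. Tafazzin, the Taz product, moves acyl chains between phospholipids and restores cardiolipin from its 3-chain form, and its human gene is mutated in Barth syndrome. The protein called TAZ in Hippo signalling is another gene, Wwtr1. LCLAT1 is an acyltransferase of the endoplasmic reticulum and its mitochondrial contacts that also acts on lysocardiolipin, and PNPLA8 is a phospholipase that takes acyl chains off. Of these 3 genes none passed the test, with Taz near 0 and both others lower in the libraries labelled Opa1-/- by point estimate.

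Taz (ENSMUSG00000009995, GRCm38 chrX:74281912-74290151, plus strand) was at 12.5, 12.6, 13.2 and 16.5 scaled TPM in the libraries labelled Opa1-/-, against 14.0, 12.3, 13.8 and 13.3 in the reconstituted ones. Library 4 labelled Opa1-/- was the highest of all 8, while libraries 1 to 3 lay within the range of the reconstituted ones. The difference was 0.03 (SE 0.09, 95% interval -0.16 to 0.23, adjusted p = 0.812), and -0.05 (adjusted p = 0.481) without library 4. Taz lies on the X chromosome, where the 301 genes tested for a chromosome median had a median difference of -0.36 and quartiles of -0.48 and -0.18. Of these genes 22, or 7.31%, had a difference above that of Taz. With the chromosome median removed Taz was at 0.39 (adjusted p = 0.0104), the only member called under that setting.

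**Figure D4:**
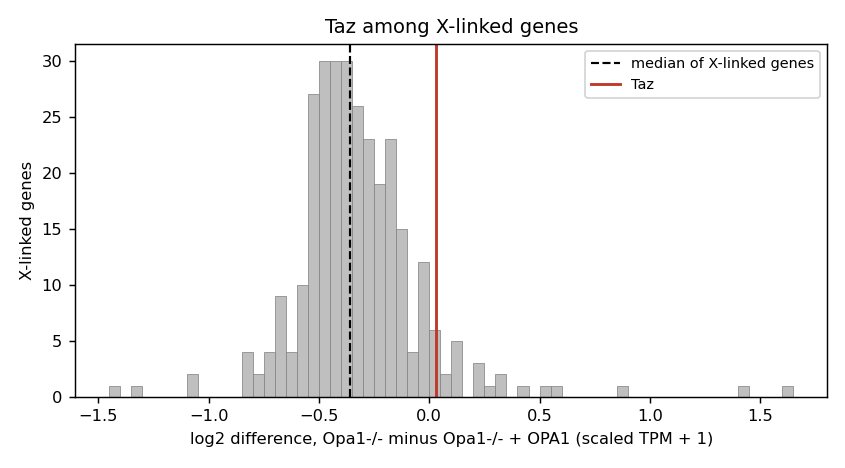
Histogram of the log2 difference, Opa1-/- minus Opa1-/- + OPA1, for 301 X-linked genes, with the median (dashed line, -0.36) and Taz (red line, 0.03). Taz lies in the upper tail, with 22 genes above it.

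Lclat1 (ENSMUSG00000054469, GRCm38 chr17:73107985-73243368, plus strand) was at 29.7, 29.1, 32.5 and 25.4 scaled TPM in the libraries labelled Opa1-/-, against 33.0, 34.2, 35.2 and 31.7 in the reconstituted ones. The overlap came from Opa1-/- library 3, the highest of its group, and reconstituted library 4, the lowest of its own. The means were 29.2 ± 2.93 and 33.5 ± 1.5 (SD, n = 4 each), and the difference was -0.20 (SE 0.07, 95% interval -0.36 to -0.04, adjusted p = 0.0593). With the replicate number as a block it passed (adjusted p = 0.023), as it did without Opa1-/- library 3 (-0.25, adjusted p = 0.0201). Without Opa1-/- library 4 it was -0.13 (adjusted p = 0.0721). Lclat1 exceeded Taz by 2.37, 2.31, 2.46 and 1.54-fold in libraries 1 to 4 labelled Opa1-/-, against 2.37, 2.79, 2.55 and 2.39-fold in the reconstituted libraries, with the lowest ratio in Opa1-/- library 4.

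Pnpla8 (ENSMUSG00000036257, GRCm38 chr12:44221370-44322532, plus strand) was at 22.7, 22.5, 23.4 and 20.2 scaled TPM in the libraries labelled Opa1-/-, against 24.1, 24.3, 24.2 and 23.8 in the reconstituted ones. All 4 were below the reconstituted libraries, which lay within 1 TPM of each other. The difference was -0.12 (SE 0.05, adjusted p = 0.109), and -0.07 without Opa1-/- library 4. With the median of its chromosome removed it was -0.02 (adjusted p = 0.842), and with length and GC trends removed also -0.02 (adjusted p = 0.744). Its exons, 14174 bases in all, are the longest of the 10 members.

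Pisd makes phosphatidylethanolamine by taking the carboxyl group off phosphatidylserine in the inner membrane. Pisd (ENSMUSG00000023452, GRCm38 chr5:32736301-32785646, minus strand) was at 12.5, 12.6, 12.4 and 11.2 scaled TPM in the libraries labelled Opa1-/-, against 10.6, 11.3, 9.39 and 10.2 in the reconstituted ones. The groups overlapped only at Opa1-/- library 4 and reconstituted library 2. The means were 12.2 ± 0.648 and 10.4 ± 0.776 (SD, n = 4 each), and Pisd rose by 0.22 on the log2 scale (SE 0.06, 95% interval 0.07 to 0.36, adjusted p = 0.0295). The call was lost on TPM as deposited (0.21, adjusted p = 0.0654), with no filter on low values (0.22, adjusted p = 0.0578), with chromosome medians removed (0.15, adjusted p = 0.109), without both libraries numbered 3 (0.17, adjusted p = 0.132), and without Opa1-/- library 1 (adjusted p = 0.0708), 2 (0.0706) or 3 (0.0604) or reconstituted library 1 (0.0561), 3 (0.0907) or 4 (0.0729). With length and GC trends removed it stayed at 0.22 (adjusted p = 0.0202), and without Opa1-/- library 4 it was 0.25 (adjusted p = 0.0113).

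Pisd has annotated pseudogene copies, Pisd-ps1 on chromosome 11 and Pisd-ps2 on chromosome 17, with stretches that match it closely. The stretch below, coding bases 374 to 463 of 1218 in transcript Pisd-201, is shown because reads from it cannot be told apart between Pisd and Pisd-ps2. Pisd-ps1 differs in 1 base, in capitals. Sequences are from GENCODE M21 transcripts on GRCm38, 5′ to 3′.
Pisd: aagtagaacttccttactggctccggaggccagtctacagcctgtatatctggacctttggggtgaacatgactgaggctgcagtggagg
Pisd-ps1: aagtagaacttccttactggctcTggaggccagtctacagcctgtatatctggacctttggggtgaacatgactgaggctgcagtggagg
Pisd-ps2: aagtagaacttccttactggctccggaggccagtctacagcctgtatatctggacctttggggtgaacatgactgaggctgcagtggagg

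Of all 50-base words in the Pisd transcripts, 3.43% recur in Pisd-ps2 and 2.64% in Pisd-ps1. Gm20671, an overlapping gene model on the same strand, covers 1156 bases or 20.1% of the Pisd exons and was at 0 or near it in all libraries. Pisd-ps1 was at 5.19 ± 1.14 scaled TPM in the libraries labelled Opa1-/-, against 4.74 ± 0.561 in the reconstituted ones, and Pisd-ps2 at 1.34 ± 0.280 against 1.57 ± 0.542 (SD, n = 4 each). Neither passed the test (adjusted p = 0.63 and 0.605), and the sources used here do not state how reads shared with Pisd were counted.

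Of neighbouring phospholipid genes, a few differed by more than any of the 10 members, but the share of called genes in each of 3 lists was close to or below the 33% over all genes tested. The lists were supply of phosphatidic acid and CDP-diacylglycerol, transfer, turnover and membrane partners of cardiolipin, and synthesis of phosphatidylserine and phosphatidylethanolamine. In the first list 11 of 12 genes were tested, and 1 was called higher and 2 lower in the libraries labelled Opa1-/-, with a median difference of 0.04 (all genes: -0.00). The gene called higher, Cds1, passed the filter on low values only through the libraries labelled Opa1-/-, so that only a higher value could have been tested, and its call carries no weight for the list. Cds1, a CDP-diacylglycerol synthase of the endoplasmic reticulum, was at 1.28, 1.56, 1.33 and 1.28 scaled TPM, against 0.584, 0.574, 0.404 and 0.423, a difference of 0.66 (SE 0.11, adjusted p = 0.00161) with the pseudocount of 1 and of 1.31 with a pseudocount of 0.1. With no filter on low values it was also 0.66 (adjusted p = 0.00175). It was low in both groups, which did not overlap, and under the filter once Opa1-/- library 1, 2, 3 or 4 was left out. Its far more abundant paralogue Cds2, named here for comparison after its values were seen, was at 19.0 ± 2.54, against 20.1 ± 0.355 (SD, n = 4 each; -0.09, adjusted p = 0.482).

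Gpat4, an acyltransferase of the endoplasmic reticulum for the first step from glycerol 3-phosphate, was at 47.8, 48.1, 49.8 and 37.9 scaled TPM, against 59.5, 62.0, 64.3 and 63.3, and fell by 0.44 (SE 0.08, adjusted p = 0.00323). Agpat5, a mitochondrial acyltransferase that forms phosphatidic acid, was at 7.33 ± 0.432, against 9.57 ± 0.538 (SD, n = 4 each), and fell by 0.34 (SE 0.06, adjusted p = 0.00288). All Opa1-/- libraries were below all reconstituted ones for both genes. Gpat4 and Agpat5 lie on chromosome 8, whose median difference was -0.18. With chromosome medians removed Gpat4 was at -0.26 (adjusted p = 0.0411) and Agpat5 at -0.16 (adjusted p = 0.0763).

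Of 18 genes for transfer, turnover and membrane partners 15 were tested, 3 rose and 0 fell, with a median of 0.03, beside the 33% of genes called and the median of -0.00 over all genes tested. Nme4, a nucleoside diphosphate kinase of the intermembrane space that binds cardiolipin and can move it between the membranes, was at 77.0, 91.1, 78.6 and 94.0 scaled TPM, against 58.1, 57.8, 52.7 and 56.2. Its groups stood well apart, and it rose by 0.59 (SE 0.07, adjusted p = 0.00038). Pla2g6, a calcium-independent phospholipase, was at 12.8, 11.4, 11.6 and 12.6, against 9.08, 9.33, 9.33 and 9.07, and rose by 0.36 (SE 0.05, adjusted p = 0.000991). Prelid2, a relative of Prelid1, was at 3.76, 6.64, 5.39 and 6.19, against 3.47, 2.98, 4.32 and 3.04, and rose by 0.53 (SE 0.16, adjusted p = 0.0283) with overlap. The Prelid2 call was lost with no filter on low values (adjusted p = 0.077) and when any of Opa1-/- libraries 2, 3 and 4 or reconstituted libraries 1, 2 and 4 was left out (adjusted p from 0.0535 to 0.0744). Them5, an acyl-CoA thioesterase, was listed at 0 in all libraries, and Pld6 and Abhd18 were under the filter.

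Of 10 genes of phosphatidylserine and phosphatidylethanolamine synthesis 9 were tested, 1 rose and 2 fell, with a median of -0.04, so the share called was close to the 33% of all genes tested. Ptdss1, a phosphatidylserine synthase, was at 43.0 ± 3.16 scaled TPM, against 50.3 ± 2.28 (SD, n = 4 each), and fell by 0.22 (SE 0.06, adjusted p = 0.0166). Ptdss2, the other such synthase, was at 15 ± 0.861, against 12.8 ± 0.949 (SD, n = 4 each), and rose by 0.21 (SE 0.06, adjusted p = 0.031). The pair thus moved in opposite directions, with groups that did not overlap in either. Etnk1, an ethanolamine kinase at the start of the other route to phosphatidylethanolamine, was at 28.3 ± 1.57, against 33.2 ± 0.701 (SD, n = 4 each), and fell by 0.23 (SE 0.05, adjusted p = 0.00618). The Ptdss2 call was lost on TPM as deposited (adjusted p = 0.143), with no filter (0.0603), with chromosome medians removed (0.11, adjusted p = 0.256), without both libraries numbered 3 (0.0619), and without Opa1-/- library 3 (0.0699) or reconstituted library 1 (0.087) or 2 (0.0852). On TPM as deposited Ptdss1 (adjusted p = 0.0705) and Etnk1 (0.0681) did not pass, and Ptdss1 did not pass without reconstituted library 4 (0.0507).

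**Figure D5:**
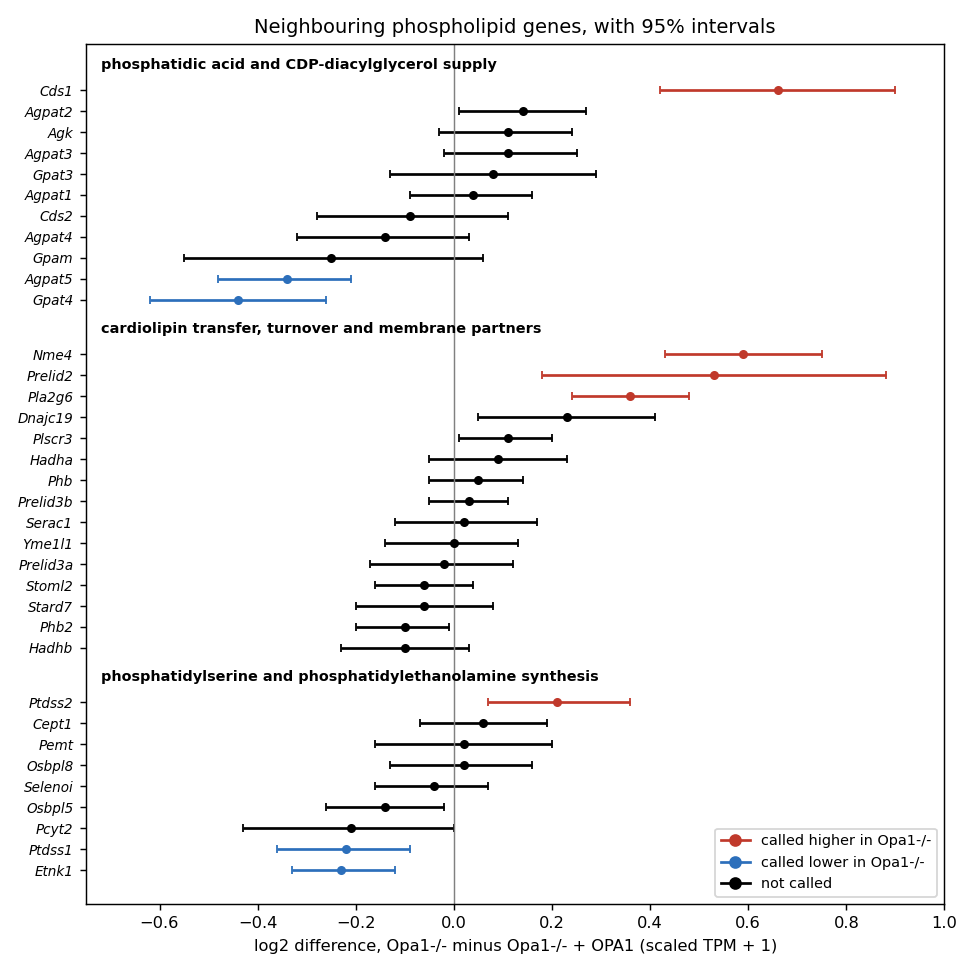
Log2 difference, Opa1-/- minus Opa1-/- + OPA1, with 95% intervals for the tested genes of the 3 neighbouring lists, red where called higher in Opa1-/-, blue where called lower and black where not called. Nme4 (0.59) and Prelid2 (0.53) lie far to the right, beside Cds1 (0.66), which passed the filter only through the Opa1-/- libraries. Gpat4 (-0.44) and Agpat5 (-0.34) lie furthest to the left.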

How the data were processed

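The authors deposited TPM values, per the file headers, with a gene identifier and name for 49315 genes in each of 8 libraries, and each file sums to 1000000. The labels' protocols name RNA extraction with a Qiagen column kit and a NEBNext Ultra II library kit. The submitters' processing notes name bcl2fastq 2.17, STAR 2.5.2b, featureCounts and Subread 1.5.2. They also list mm10 and GRCh38 as builds, without saying which was used for what. No source used here states strandedness.

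TPM holds no depth. Since TPM times exon length (GENCODE M21, GRCm38, which held 48970 of the identifiers) steps in whole reads, 94.5% to 94.8% of low values came out whole within 0.05 of a read, which gave 52.9 M to 57.8 M reads per library (M, 1000000 reads). Scaling between libraries used unweighted trimmed means of log ratios, with 30% of the ratios and 5% of the levels cut off at either end. A gene needed at least 1 TPM in 4 libraries, and the 14272 that met this were tested with limma-trend (limma 3.58.1, R 4.3.3) on log2(scaled TPM + 1), two-sided, with Benjamini-Hochberg adjustment; this scale understates the change of low genes. Tables were handled in Python 3.11.15 (pandas 2.3.3, numpy 2.4.6, scipy 1.17.1), and plots drawn with matplotlib 3.10.9. Chromosome medians and trends used genes with a mean log2 level above 3, and trends were natural splines with 4 degrees of freedom. The procedure was tested on reads simulated at the real depths, without length trends or an outlying library. Of 50 genes changed at each fold it recovered 13 at 1.25-fold, 46 at 1.5-fold and 50 at both 2-fold and 4-fold. Of 172 calls 13 were false. In the simulation changes of 1.25-fold were thus mostly missed. The simulation held far fewer changed genes than the data, where 33% of genes tested were called, so this share need not hold for the members. A member that did not pass may still differ by as much as its 95% interval allows.

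The members and lists were chosen with earlier results of these data known. All 10 members and Opa1 are named, with some but not all of the overlapping genes and pseudogene copies, and of each neighbouring list the called genes. Others were named after their values were seen. Same-numbered libraries deviated together (correlations of 0.25, 0.22, 0.32 and 0.12 over 9416 genes), while those of different numbers gave -0.32 to 0.11. No label says that a number marks a shared culture or day, so the main fit has no block. A fit with the number as a block is given as an alternative, and under it Lclat1 was called lower. No 2 libraries of a group agreed within sampling noise (lowest chi-square per degree of freedom 4.72). Alternatives were other scalings, filters and pseudocounts, a replicate block, chromosome medians or length and GC trends removed, protein-coding genes only, and libraries left out; scaling factors from all genes above 0 were added after seeing the data.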

Additional observations from a re-analysis of the deposited data

Results flagged for a closer look

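Gpat4 was checked with 18 other genes, 38 groups of 4 libraries in all. Library 4 labelled Opa1-/- stood at 37.9 scaled TPM, while the other 3 of its group were at 47.8, 48.1 and 49.8, so that its gap to the nearest took 0.834 of the whole range, above Dixon's 95% critical value for 4 samples. Chance flags about 1 in 20 groups. Without it the Gpat4 difference was -0.35 (limma-trend, adjusted p = 0.000238).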

How the results depend on the processing

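Over 19 alternatives the number of genes called higher ran from 1559 to 2755 (2322 as reported) and of genes called lower from 1529 to 2731 (2392 as reported), 1529 on TPM as deposited and 1562 with chromosome medians removed. Cardiolipin members called higher, 2 as reported, numbered 0 on TPM as deposited and without both libraries numbered 3, 1 with no filter, with chromosome medians removed (Taz in place of Triap1 and Pisd) and with length and GC trends removed, and 4 under upper-quartile scaling. Members called lower, 0 as reported, numbered 1 (Lclat1) with the 5 TPM filter (adjusted p = 0.0492), with protein-coding genes only (0.0385) and with the replicate block. With 1 library left out they numbered 0 to 3 higher and 0 to 1 lower. The replicate block, which gave 2362 and 2395 genes, changed no other member's call. With 1 library left out Taz ran from -0.05 (without Opa1-/- replicate 4; -0.01 without Opa1-/- + OPA1 replicate 2) to 0.07, and Tamm41 from -0.003 (without Opa1-/- replicate 4) to 0.06. Triap1 lost its call in 7 of the 19 alternatives (adjusted p from 0.00171 to 0.229) and Pisd in 10 (0.0113 to 0.132), with no change of direction. The causes were not tested. Counting error alone came to at most 0.53% of the level of Prelid1, 1.3% of that of Pnpla8 and 3.8% of that of Triap1. The reconstituted libraries of Triap1 (2.01%), Prelid1 (0.289%) and Pnpla8 (0.819%) varied by less than these values (coefficients of variation).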
